A study of Mus musculus with 6 samples.

Results

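Interferon-stimulated genes are the genes that cells switch on when interferon reaches them. A set of 33 of them was named as members by symbol, and 32 of the 33 had a row among the 22824 rows of each library. Ifit3 was not analysed here. The data are 6 RNA-seq libraries from femurs of C57BL/6 mice, 3 labelled OE and 3 labelled Ctrl, sequenced with paired ends. OE mice carried 9.6kb DMP1-Cre with R26-Wnt7b and were homozygotes, so that Wnt7b was switched on where this Dmp1 sequence is active, mainly in osteocytes and mature osteoblasts. Ctrl mice were littermates that carried R26-Wnt7b but no Cre, so both groups share that allele. Bones were described as freed of cartilage and of marrow, and the labels used here give no age. No label ties a library to an animal of its own, so a p-value measures the spread between libraries, part of which may be technical.

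Type I interferons bind a receptor whose kinases phosphorylate STAT2, which joins IRF9 in a complex that binds a DNA motif called the interferon-stimulated response element, or ISRE. Interferon gamma uses another receptor, and its signal reaches a motif called the gamma-activated sequence, or GAS. The induced proteins sense viral nucleic acid, degrade RNA, block virus entry and release, and damp the signal itself. In bone, interferon is known as a brake on osteoclast formation.

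Promoters of the members were searched for the ISRE core, since this motif is how the pathway reaches its genes. RefSeq windows on GRCm38.p6, from 250 bases before to 50 after a start site, were found for 24 of the 32 listed members, as 30 windows. The core searched was GAAA, any 2 bases and GAAA again, on both strands, with overlapping matches kept. A match lay in the windows of 12 of the 24 members (50%) and of 3.99% of all 27025 genes with a window. Counted by window of 300 bases, it lay in 40% of member windows and 3.44% of all windows. The stretches below show how the core is arranged in members whose match lies before the start. Capitals mark the core, and each stretch is written along the strand of its gene.
Isg15: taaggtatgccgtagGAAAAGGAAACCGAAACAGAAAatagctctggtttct
Ifit1: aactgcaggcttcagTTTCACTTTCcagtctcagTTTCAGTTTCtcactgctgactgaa
Oas1a: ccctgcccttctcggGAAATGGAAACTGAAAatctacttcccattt
Gbp3: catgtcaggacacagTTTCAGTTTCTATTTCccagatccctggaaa
Gbp2: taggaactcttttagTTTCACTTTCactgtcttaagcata
Rsad2: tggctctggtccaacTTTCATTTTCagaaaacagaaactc

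The Isg15 stretch (chr4:156200860-156200911, minus strand) held 3 overlapping cores between 78 and 57 bases before the start, the most among these members. Ifit1 (chr19:34640770-34640828, plus strand) held 2 separate cores. Oas1a (chr5:120907515-120907560, minus strand) and Gbp3 (chr3:142559984-142560029, plus strand) held 2 overlapping cores each. Gbp2 (chr3:142620589-142620628, plus strand) and Rsad2 (chr12:26456548-26456587, minus strand) held 1 each. Bst2, Gbp7, Oas3, Stat2, Eif2ak2 and Ifih1 also held a match. No window of Isg20 held the core. One of them held a GAS motif, TTC, any 3 bases and GAA, which is shown in capitals because Isg20 varied most between libraries (chr7:78913336-78913374, plus strand).
Isg20: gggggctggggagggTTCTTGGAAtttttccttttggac
The GAS letters read the same on both strands and lay in the windows of 8 of the 24 members (33.3%) and of 9.55% of all genes. Both searches describe letters in a window and say nothing of binding.

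**Figure D1:**
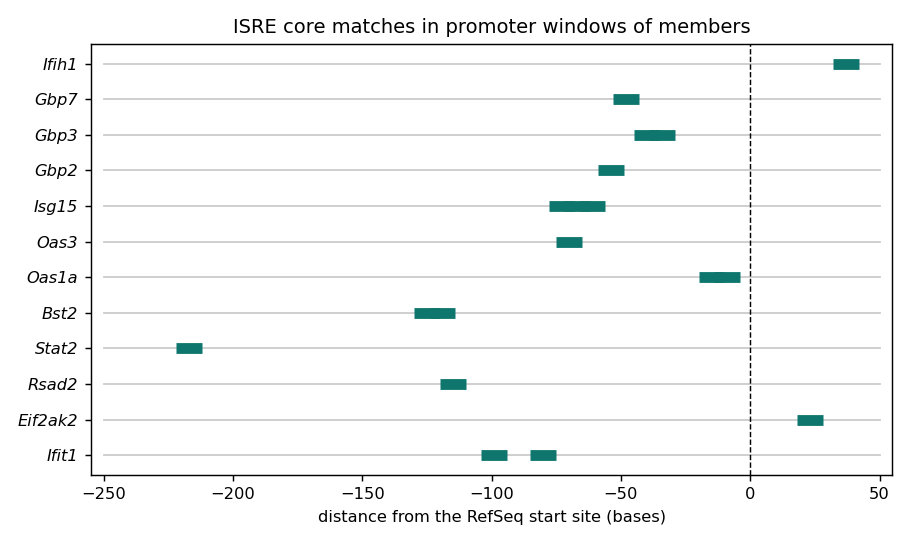
ISRE core matches in the RefSeq promoter windows of the 12 members that held one. The x axis is the distance from the start site in bases, grey lines span the window, green bars are matches and the dashed line is the start site. Matches in Ifih1 and Eif2ak2 lie after the start site, and those of the other members before it.

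Values are in FPKM, which scales fragments to transcript length and to library size, so levels can be compared between genes. The number of reads behind them is unknown, and library depths relative to each other ran from 1.0 to 1.18, read from the steps of low values. Below, values follow the order OE 1, OE 2, OE 3, then the library labelled Ctrl 1, Ctrl 2 and Ctrl 3. Wnt7b, the gene OE mice were built to express, measured 2.49, 0.661 and 0.295 FPKM in the OE libraries, and 0.909, 0.00833 and a listed 0 in the Ctrl libraries. The library labelled Ctrl 1 held more Wnt7b than OE 2 and OE 3, which goes against its label. An exact permutation test of the difference (0.65 in log2(FPKM + 1), two-sided) gave p = 0.3, and 0.1 is the smallest value that 3 libraries against 3 can give. Osteoblast markers had a mean level of 8.86, 8.34 and 7.84 in the OE libraries and 8.41, 5.16 and 4.999 in the Ctrl libraries, in log2(FPKM + 1). Marrow and cartilage markers were present against the label of cleaned bone. S100a8 and S100a9, genes of neutrophils, took 7.25% to 16.3% of all FPKM, and the cartilage level was 4.76, 5.39 and 4.22 in the OE libraries and 4.78, 1.62 and 1.82 in the Ctrl libraries. OE 3 stood apart with haemoglobin at 7.45% of all FPKM, against 0.220% to 1.26% elsewhere. In whole bone, fewer cells of a type and less RNA per cell cannot be told apart.

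Interferon-stimulated genes were expressed at a low to moderate level in both groups, and 29 of the 32 had overlapping OE and Ctrl values. Mean levels ran from 0.762 FPKM for Mx2 to 57.4 for Bst2. A filter of 1 FPKM in at least 3 libraries left 30 members for testing, all of them at 1 FPKM or more in every library, while Mx2 and Ifi44 fell below it. By limma 0 of the 30 passed an adjusted p of 0.05, as did 0 of 12177 genes (0.0%). An unadjusted p under 0.05 was found for 0 members and for 8.2% of all genes, and limma without a trend also called 0. The median OE minus Ctrl difference was -0.018 in log2(FPKM + 1) over the 30 members and -0.042 over all genes tested. The member median ran from -0.11 without the library labelled Ctrl 1 to 0.11 without OE 1, and was -0.16 without the library labelled Ctrl 1 and OE 3, so its sign turned on single libraries. It was 0.071 with scaling without marrow and muscle marker genes, where all genes had a median of 0.043. It was positive for 14 of the 30 (46.7%) and for 43.7% of all genes. When FPKM were rescaled after leaving out neutrophil, erythroid, B-cell and muscle marker genes, it was positive for 19 of the 30 and for 6879 of the 12177 genes, with medians of 0.071 and 0.043. None of the 30 had every OE value above every Ctrl value, where 4.59% of all genes did. Irf9 and Oasl1, 2 of the 30 (6.67%), had every OE value below, where 8.97% of all genes did. With that rescaling both overlapped. Irf1 and Dhx58, 2 of the 30, then had every OE value below, where 934 of the 12177 genes did.

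These counts also turned on single OE libraries. Without OE 1, the values of 7 of the 30 did not overlap and were above (Irf7, Stat2, Ifit1, Usp18, Bst2, Ifi35 and Xaf1), where 6.91% of all genes did so, and 2 were below, where 11.3% did. Without OE 2, 9 were below (Irf1, Irf9, Dhx58, Zbp1, Oas1a, Oas3, Oasl1, Oasl2 and Rtp4), where 22.6% of all genes did so, and 0 were above, where 10.2% did. An unadjusted limma p under 0.05 was found for 2 members and 2.98% of all genes without OE 1, and for 5 members and 11.8% of all genes without OE 2. Limma called 0 members at an adjusted p of 0.05 in both, and also 0 of all 12177 genes.

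Differences were small where they could be measured. They ran from -0.33 (SE 0.22) for Zbp1 to 0.33 (SE 0.17) for Xaf1, and all 30 were under 0.5 in size, as were 85.6% of all genes. A step of 1 in log2(FPKM + 1) is about a doubling for genes at a high level, and more than that for genes at a low level. The 95% interval lay within 1 either way for 27 of the 30 members and for 78.0% of all genes. It reached further for Isg15 (-1.15 to 1.60), Rsad2 (-1.37 to 1.84) and Isg20 (-1.96 to 1.80), so for these 3 it leaves room for more than a doubling in either direction.

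**Figure D2:**
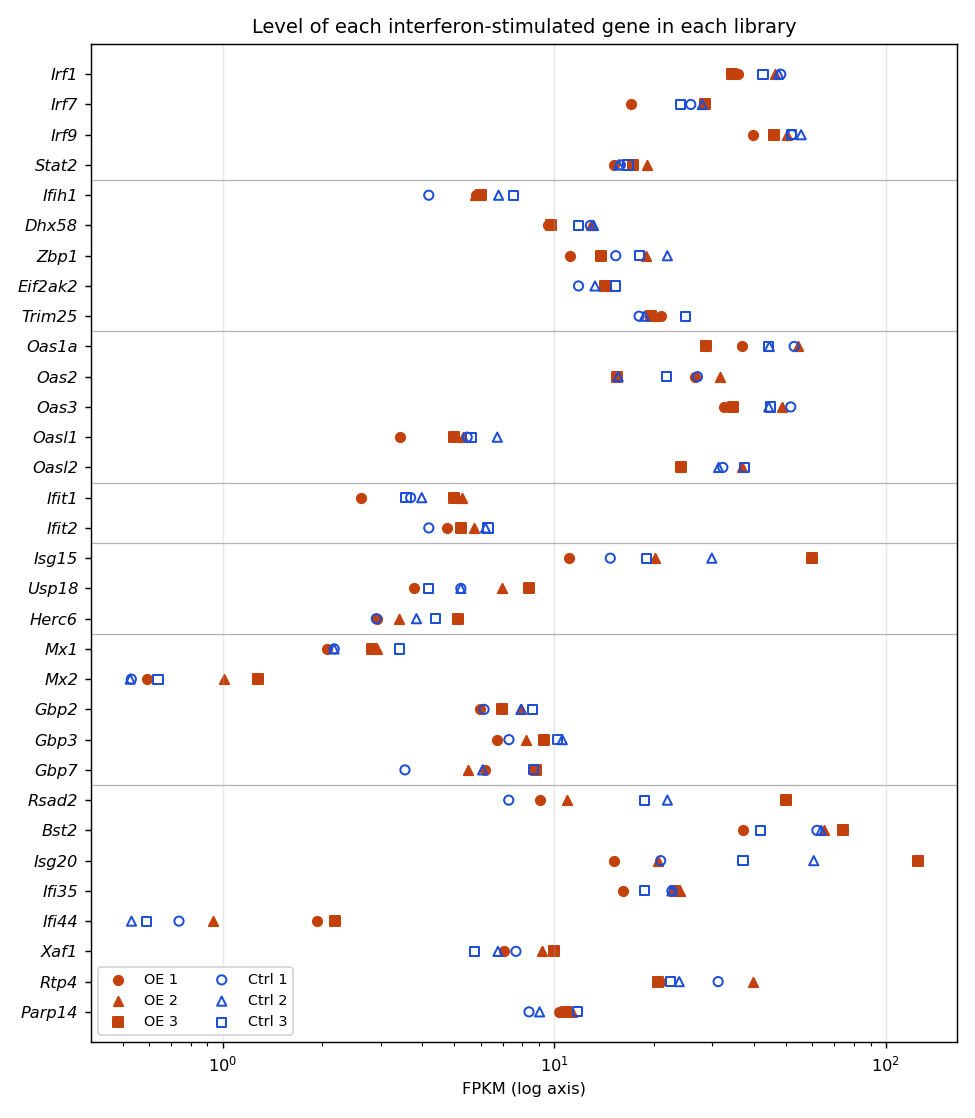
FPKM (log axis) of each of the 32 listed members in each library, with filled orange symbols for OE and open blue symbols for Ctrl. Most members keep a narrow range with the groups mixed, while Isg15, Rsad2 and Isg20 reach 59.9, 50.1 and 125 FPKM in OE 3.

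**Figure D3:**
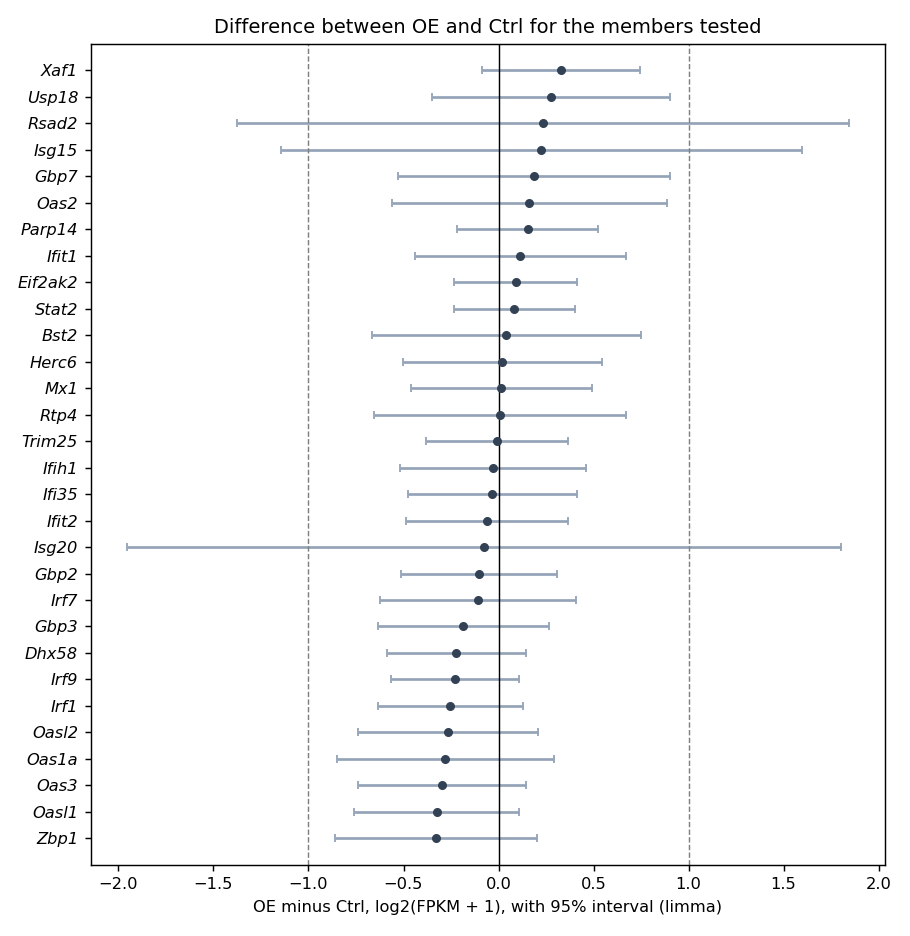
OE minus Ctrl difference in log2(FPKM + 1) for the 30 members tested (points), with the 95% interval from limma (bars) and dashed lines at 1 either way. Every interval includes 0, and those of Isg15, Rsad2 and Isg20 pass the dashed lines.

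Of the 4 factors that carry the interferon signal 3 had a negative difference, as did 6861 of all 12177 genes tested. Irf9, the DNA-binding part of the ISRE complex, measured 39.7, 50.3 and 46.2 FPKM in the OE libraries against 52.1, 55.6 and 51.9 in the Ctrl libraries. Each OE value lay below each Ctrl value, with OE 2 and Ctrl 3 close together, and the difference was -0.23 (SE 0.14), limma adjusted p = 0.579. With single libraries left out it ran from -0.31 to -0.14, without OE 2 and without OE 1 in that order. Stat2, which gives this complex its activating domain, measured 15.1, 19.1 and 17.3 FPKM in the OE libraries against 15.8, 15.7 and 16.7 in the Ctrl libraries. Its highest library was 1.26 times its lowest, the smallest ratio among the members tested. Irf7, which amplifies type I interferon production, measured 17.05, 28.2 and 28.6 FPKM in the OE libraries against 25.8, 27.98 and 24.1 in the Ctrl libraries. OE 1 was low and the other 5 libraries lay close together. Irf1, a factor that both kinds of interferon induce, measured 38.8 ± 6.53 FPKM over the OE libraries and 46.1 ± 3.07 over the Ctrl libraries (SD, n = 3), and its groups overlapped.

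Sensors of viral nucleic acid and their partners had overlapping groups as well. Zbp1, a sensor of Z-form nucleic acid, measured 11.1, 18.98 and 13.8 FPKM in the OE libraries against 15.3, 21.95 and 18.1 in the Ctrl libraries. OE 1 was lowest, Ctrl 2 was highest, and the limma adjusted p was 0.601. With single libraries left out its difference ran from -0.52 to -0.16, without OE 2 and without OE 1 in that order. Ifih1, which encodes the long double-stranded RNA sensor MDA5, measured 5.83, 5.78 and 6.03 FPKM in the OE libraries against 4.19, 6.80 and 7.54 in the Ctrl libraries. The OE libraries were close to each other, and the Ctrl libraries lay on both sides of them with the library labelled Ctrl 1 lowest. Eif2ak2 encodes the kinase PKR, which stops translation on double-stranded RNA, and measured 14.3 ± 0.102 FPKM over the OE libraries and 13.5 ± 1.75 over the Ctrl libraries (SD, n = 3). Dhx58, which encodes the sensor LGP2, measured 10.8 ± 1.87 FPKM over the OE libraries and 12.6 ± 0.694 over the Ctrl libraries. Trim25, a ubiquitin ligase of the RIG-I pathway, measured 20.2 ± 0.743 FPKM over the OE libraries and 20.5 ± 3.74 over the Ctrl libraries.

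Oligoadenylate synthetases make a messenger that activates the RNA-cutting enzyme RNase L. In the gene family named for them, 4 of the 5 members had a negative difference, also under both other scalings. Of all 12177 genes tested 6861 were negative with values as deposited, and 5298 with scaling without marrow and muscle marker genes. Oasl1, which limits translation of Irf7, measured 3.43, 5.31 and 4.997 FPKM in the OE libraries against 5.47, 6.74 and 5.62 in the Ctrl libraries. Each OE value lay below each Ctrl value, by a small margin between OE 2 and the library labelled Ctrl 1, and the difference was -0.33 (SE 0.18), limma adjusted p = 0.563. With single libraries left out it ran from -0.42 to -0.17, without OE 2 and without OE 1 in that order. Oas1a measured 36.9, 54.4 and 28.8 FPKM in the OE libraries against 52.96, 44.6 and 44.4 in the Ctrl libraries, so the OE libraries held both its highest and its lowest value. Oas2, the member with a positive difference, measured 26.6, 31.7 and 15.5 FPKM in the OE libraries against 27.1, 15.6 and 21.8 in the Ctrl libraries. OE 3 and Ctrl 2 were its low libraries. Oas3 measured 38.6 ± 8.74 FPKM over the OE libraries and 47.00 ± 4.09 over the Ctrl libraries, and Oasl2 28.3 ± 7.36 FPKM over the OE libraries and 33.7 ± 3.33 over the Ctrl libraries (SD, n = 3). Oas1a has similar copies nearby, and the treatment of reads that copies share is not stated in the labels, so its level is uncertain.

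IFIT proteins bind viral RNA. Ifit1 measured 2.61, 5.28 and 4.99 FPKM in the OE libraries against 3.69, 3.99 and 3.57 in the Ctrl libraries, with every Ctrl library between OE 1 and the other two OE libraries. Ifit2 measured 5.24 ± 0.479 FPKM over the OE libraries and 5.57 ± 1.20 over the Ctrl libraries (SD, n = 3). Both belong to a cluster of similar genes, so their levels are uncertain in the same way.

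The ISG15 system attaches a small ubiquitin-like protein to other proteins and removes it again. Isg15 (chr4:156199424-156200818, minus strand, GRCm38) encodes that protein and measured 11.1, 20.1 and 59.9 FPKM in the OE libraries against 14.8, 29.9 and 18.98 in the Ctrl libraries. OE held both extremes, OE 3 at the top and OE 1 at the bottom. Usp18, the protease that removes ISG15 and restrains the type I receptor, measured 3.77, 6.98 and 8.39 FPKM in the OE libraries against 5.23, 5.23 and 4.18 in the Ctrl libraries. OE 1 lay below every Ctrl library while OE 2 and OE 3 lay above them, and the difference was 0.28 (SE 0.26), limma adjusted p = 0.7005. With single libraries left out it ran from 0.075 to 0.56, without OE 3 and without OE 1 in that order. Herc6, an ISG15 ligase in the mouse, measured 3.82 ± 1.17 FPKM over the OE libraries and 3.71 ± 0.744 over the Ctrl libraries (SD, n = 3).

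Mx proteins are GTPases that trap viral components. Mx1 measured 2.60 ± 0.464 FPKM over the OE libraries and 2.59 ± 0.723 over the Ctrl libraries (SD, n = 3). Mx2, annotated as a polymorphic pseudogene in GENCODE M21, measured 0.592, 1.01 and 1.28 FPKM in the OE libraries against 0.530, 0.526 and 0.639 in the Ctrl libraries. Ctrl 3 lay above OE 1, so its groups overlapped. Guanylate-binding proteins act on membranes around intracellular microbes. Gbp2 measured 6.95 ± 0.999 FPKM over the OE libraries and 7.57 ± 1.28 over the Ctrl libraries, and Gbp3 8.08 ± 1.32 FPKM over the OE libraries and 9.36 ± 1.79 over the Ctrl libraries (SD, n = 3). Gbp7 measured 6.18, 5.51 and 8.81 FPKM in the OE libraries against 3.55, 6.09 and 8.64 in the Ctrl libraries, and its lowest library was the one labelled Ctrl 1. Mx and Gbp genes have close relatives, so reads could be split between copies.

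Ifi44, 1 of the 32 listed members, had every OE value above every Ctrl value. Of all genes that passed the filter 4.59% did so, and the share among genes below it was not counted. Ifi44 encodes a cytoplasmic interferon-induced protein and measured 1.92, 0.936 and 2.18 FPKM in the OE libraries against 0.738, 0.531 and 0.588 in the Ctrl libraries. Its OE mean was 2.71 times its Ctrl mean. It was below the filter, and with no filter its difference was 0.70 (SE 0.20), limma adjusted p = 0.599 over 19649 genes. Xaf1, a promoter of apoptosis, measured 7.05, 9.20 and 9.96 FPKM in the OE libraries against 7.67, 6.77 and 5.74 in the Ctrl libraries. OE 1 lay below the library labelled Ctrl 1, so the groups overlapped, and the limma adjusted p was 0.561.

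Bst2 encodes tetherin, which holds budding virus at the cell surface, and had the highest mean of the members, at 37.2, 65.3 and 74.4 FPKM in the OE libraries against 62.01, 63.8 and 41.9 in the Ctrl libraries. OE 1 and Ctrl 3 were its low libraries. Bst2 and Irf7 also mark plasmacytoid dendritic cells, strong producers of type I interferon. Their 7 other markers did not move together. Cox6a2 and Tcf4 summed to 77.4, 60.3 and 57.5 FPKM in the OE libraries against 63.4, 21.7 and 26.2 in the Ctrl libraries, an order in which the library labelled Ctrl 1 stood with OE, as it did for the muscle markers (7.34, 6.98 and 7.52 in the OE libraries and 6.90, 4.62 and 4.96 in the Ctrl libraries, in log2(FPKM + 1)). The 5 others, Siglech, Ccr9, Klk1, Spib and Ly6d, summed to 18.01, 36.8 and 76.8 FPKM in the OE libraries against 26.3, 31.8 and 25.7 in the Ctrl libraries, lowest in OE 1 and highest in OE 3. This split was made after the values were seen. Siglech, a defining lectin of these cells, measured 3.62, 4.78 and 12.1 FPKM in the OE libraries against 4.95, 4.96 and 5.54 in the Ctrl libraries. Their part in the levels of Bst2 and Irf7 was not tested. In OE 3 the largest of the 5 summed markers were Ly6d, at 35.6 FPKM, and Spib, at 22.9 FPKM. B-cell markers were also highest in OE 3, and the part of B cells in that sum was not tested. Rtp4, a chaperone of membrane receptors, measured 27.04 ± 10.9 FPKM over the OE libraries and 25.9 ± 4.71 over the Ctrl libraries (SD, n = 3). Ifi35 measured 21.1 ± 4.31 FPKM over the OE libraries and 21.4 ± 2.27 over the Ctrl libraries, and Parp14, an ADP-ribosyltransferase, 10.8 ± 0.490 FPKM over the OE libraries and 9.74 ± 1.80 over the Ctrl libraries. Rtp4, Irf1 and Irf7 overlap a listed gene on the other strand, and without a stated strand setting their reads cannot be told from those of that gene.

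Isg20, Rsad2 and Isg15 varied far more between libraries than the other members, and were singled out after their values were seen. Their highest library was 5.39 to 8.28 times their lowest, against 1.26 to 2.48 times for the other 27 members tested. The median ratio was 1.71 over the 30 members and 1.68 over all genes, and it passed 2 for 8 of the 30 (26.7%) and for 33.2% of all genes. Isg20 encodes an exonuclease that degrades single-stranded RNA (chr7:78913424-78920396, plus strand, GRCm38) and measured 15.1, 20.6 and 125 FPKM in the OE libraries against 20.96, 60.7 and 37.1 in the Ctrl libraries. Rsad2 encodes viperin, which makes a chain-terminating nucleotide (chr12:26442746-26456452, minus strand, GRCm38), and measured 9.04, 10.9 and 50.1 FPKM in the OE libraries against 7.29, 21.9 and 18.8 in the Ctrl libraries. In both genes OE 3 was highest, then Ctrl 2, then Ctrl 3, and the 3 other libraries were low.

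Erythroid markers stood in that same order of libraries. Their mean level over 7 genes was 4.82, 5.28 and 9.09 in the OE libraries and 5.09, 7.57 and 6.86 in the Ctrl libraries, in log2(FPKM + 1), and the order held for all 7. It held for 4 of 5 megakaryocyte markers, with a mean level of 5.71, 6.52 and 7.90 in the OE libraries and 6.58, 7.68 and 7.35 in the Ctrl libraries. Among the members it held for Isg20 and Rsad2, 2 of 30 (6.67%), and among all genes tested for 3.97%. The order was chosen after the values were seen, so that it held for Isg20, Rsad2 and the erythroid markers is not a test. Isg15 departed from it, since OE 2 lay above Ctrl 3. B-cell markers were also highest in OE 3, with a mean level of 2.84, 3.50 and 5.54 in the OE libraries and 3.08, 2.64 and 2.47 in the Ctrl libraries. Summed over each list, erythroid markers ran from 978 to 33723 FPKM in OE and from 1196 to 6948 in Ctrl. The part of these cells in the levels of Isg20, Rsad2 and Isg15 was not tested.

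The direction of these 3 differences turned on which libraries were kept. With all 6 libraries the differences were -0.078 (SE 0.79) for Isg20, 0.23 (SE 0.68) for Rsad2 and 0.22 (SE 0.58) for Isg15, and Isg20 was at 0.0093 with scaling without marrow and muscle marker genes. Without OE 3 they were -0.997, -0.51 and -0.42, and limma called 0 members and 0 of all 12177 genes. Without OE 3 and the library labelled Ctrl 1, Isg20 was lower in OE by limma, at -1.38 (SE 0.27, adjusted p = 0.0195). Rsad2 was lower there too, at -0.96 (SE 0.18, limma adjusted p = 0.0153). OE 3 held the highest OE value of both genes, and the library labelled Ctrl 1 their lowest Ctrl value. Leaving both libraries out therefore lowered these differences by construction. The genes were also singled out after their values were seen, so these adjusted p-values cannot decide whether OE is lower. With these 4 libraries limma called 2 of the 30 members, where 11.4% of all genes were called. Both were lower, where 3.48% of all genes were called lower, and none was higher, where 7.92% were. An unadjusted p under 0.05 was found for 4 members and 23.2% of all genes. Values did not overlap for 2 members above (Oas2 and Xaf1) and 8 below, where 23.4% and 28.0% of all genes did so. The erythroid markers of those libraries were lower in OE as well, at 4.82 and 5.28 against 7.57 and 6.86.

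Leaving out the library labelled Ctrl 1 alone left every member uncalled by limma, where 4.9% of all genes were called. An unadjusted p under 0.05 was then found for 0 members and for 17.0% of all genes. Xaf1, 1 of the 30, then had every OE value above both Ctrl values, where 18.3% of all genes did. Irf9, Ifih1, Oasl1, Ifit2 and Gbp3, 5 of the 30, had every OE value below, where 18.6% of all genes did.

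**Figure D4:**
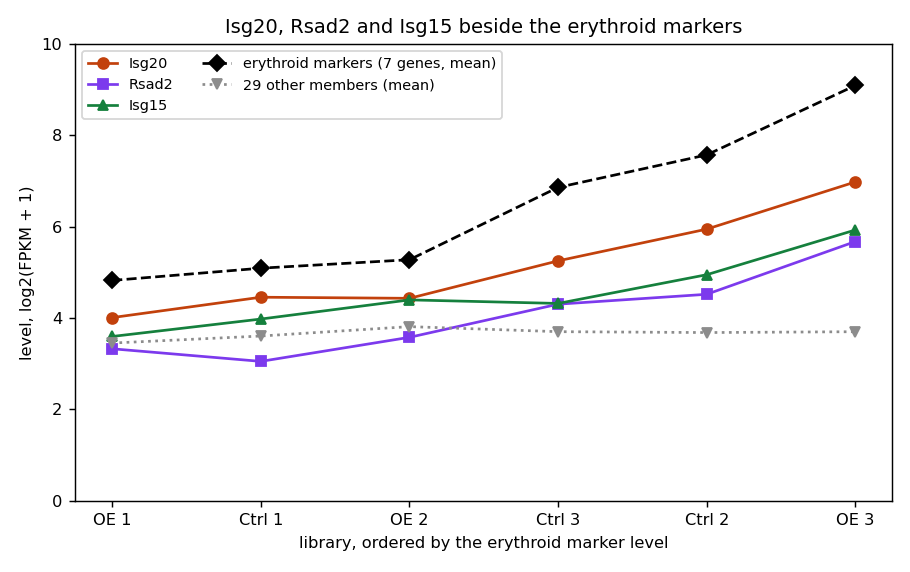
Level in log2(FPKM + 1) of Isg20, Rsad2 and Isg15, of the mean of 7 erythroid markers and of the mean of the 29 other members, with libraries ordered by the erythroid level. The 3 genes are highest in OE 3, where the erythroid mean is 9.09, while the mean of the other members stays between 3.45 and 3.81.

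The other 29 listed members had a mean level of 3.45, 3.81 and 3.70 in the OE libraries and 3.61, 3.68 and 3.70 in the Ctrl libraries, in log2(FPKM + 1). Group means were 3.66 ± 0.18 for OE and 3.66 ± 0.050 for Ctrl (SD, n = 3), so libraries within OE differed more from each other than the group means did. OE 1 was the lowest library for 17 of the 30 members tested (56.7%) and for 21.1% of all genes, and the highest for none, where it was highest for 19.2% of all genes. With trimmed mean scaling it was lowest for 19 of 30 and for 25.5% of all genes, and with scaling without marrow and muscle marker genes for 13 of 30 and 12% of all genes. Irf7, Isg15, Usp18, Bst2 and Ifit1 were among the 17. OE 3 was the highest library for 9 of the 30 (30%) and for 16.4% of all genes. The library labelled Ctrl 1 was lowest for 8 members, among them Ifih1, Eif2ak2 and Gbp7, and for 15.6% of all genes. OE 2 and Ctrl 2 were lowest for no member, where they were lowest for 5.69% and 13.6% of all genes. With scaling without marrow and muscle marker genes Ctrl 2 was lowest for 6 members. OE 1 and the library labelled Ctrl 1 also had the lowest erythroid levels, at 4.82 and 5.09 in log2(FPKM + 1), with OE 2 close at 5.28. The same 2 libraries had the highest osteoblast levels, at 8.86 and 8.41, with OE 2 close at 8.34. The part of either cell type in these low values was not tested.

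**Figure D5:**
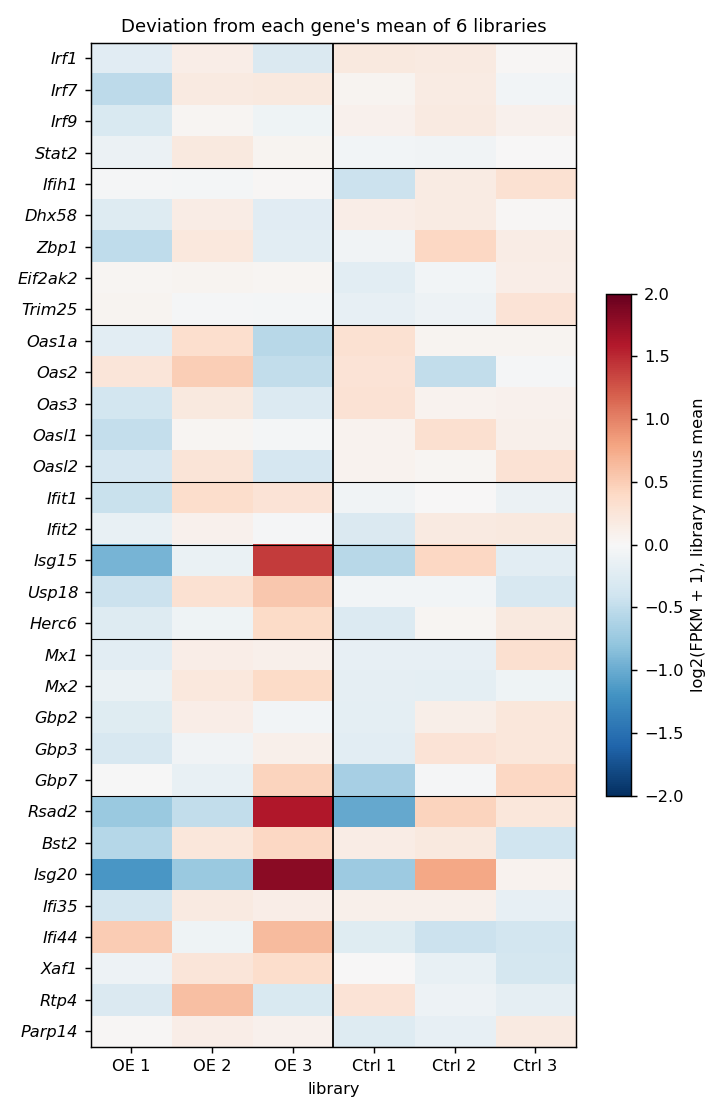
Deviation of each library from the mean of 6 libraries in log2(FPKM + 1), with the 32 listed members in rows and libraries in columns, red above and blue below the mean. OE 1 is mostly blue, and Isg15, Rsad2 and Isg20 are dark red in OE 3.

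Other genes of the pathway were read from 8 lists, with 110 genes listed and 86 tested. Limma called 0 of the 86, and 6 had an unadjusted p under 0.05, or 6.98%, where 8.2% of all genes did. Their median difference was -0.097, beside -0.042 over all genes, and 27 of the 86 were positive, where 43.7% of all genes were. Phf11d, 1 of the 86 (1.16%), had every OE value above every Ctrl value, where 4.59% of all genes did. In 9 of them (10.5%) every OE value lay below, close to the 8.97% of all genes. The ligands had the lowest listed values. Of 21 interferon genes 14 were listed at 0 in all 6 libraries, and none reached the filter. A listed 0 need not mean low expression in these files: Col1a1, the main collagen of bone, was listed at 0 in OE 1 and the library labelled Ctrl 1 and at 3504 and 3278 FPKM in OE 2 and OE 3. Ifng, which encodes interferon gamma, had the highest mean, at 0.125, 0.161 and 0.120 FPKM in the OE libraries against 0.0469, 0.0527 and 0.137 in the Ctrl libraries. Ifnz came next, at 0.0799, 0.128 and 0.0191 FPKM in the OE libraries against 0.0560, 0.0630 and 0.0363 in the Ctrl libraries.

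Receptors and signal factors were listed at far higher values than the ligands. Ifngr1, a chain of the interferon gamma receptor, measured 93.1 ± 19.1 FPKM over the OE libraries and 117 ± 11.3 over the Ctrl libraries (SD, n = 3). Il10rb, a chain that lambda interferon and IL-10 receptors share, measured 96.9, 108 and 83.8 FPKM in the OE libraries against 113, 127 and 114 in the Ctrl libraries, with every OE value below every Ctrl value except with scaling without marrow and muscle marker genes, and limma adjusted p = 0.561. Stat3, a factor of many cytokine receptors, measured 63.6 ± 19.8 FPKM over the OE libraries and 77.3 ± 6.23 over the Ctrl libraries. Irf4, a factor of lymphoid cells, measured 4.51 ± 2.67 FPKM over the OE libraries and 2.94 ± 0.928 over the Ctrl libraries. Among sensors and adaptors, Myd88, which serves Toll-like receptors, measured 68.7, 96.4 and 35.4 FPKM in the OE libraries against 107, 99.5 and 83.1 in the Ctrl libraries. OE 3 was its lowest library and also that of the neutrophil markers, with a mean level of 11.51, 11.98 and 10.75 in the OE libraries and 12.001, 12.04 and 11.73 in the Ctrl libraries, whose part was not tested. Tmem173, which encodes STING, measured 16.1 ± 3.71 FPKM over the OE libraries and 20.5 ± 1.36 over the Ctrl libraries. Zc3hav1, an antiviral zinc finger protein, measured 30.4 ± 2.36 FPKM over the OE libraries and 34.04 ± 6.85 over the Ctrl libraries.

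Negative regulators had a negative difference in 7 of 8 genes, and in 6 of 8 with scaling without marrow and muscle marker genes, where Socs3 and Irf2bp2 overlapped. Socs3, which blocks cytokine receptors, measured 25.7, 23.9 and 10.7 FPKM in the OE libraries against 28.2, 26.7 and 26.6 in the Ctrl libraries, with OE 3 far below the rest. Irf2bp2, a partner of IRF2, measured 37.1 ± 5.41 FPKM over the OE libraries and 48.5 ± 3.65 over the Ctrl libraries (SD, n = 3), without overlap and with limma adjusted p = 0.554. Ptpn6, a phosphatase of blood cells, measured 229.9 ± 77.04 FPKM over the OE libraries and 288 ± 52.5 over the Ctrl libraries. Samhd1, which depletes nucleotides, measured 118 ± 21.2 FPKM over the OE libraries and 148 ± 27.98 over the Ctrl libraries.

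Class I antigen presentation had a median difference of -0.39, with 9 of 10 genes negative under each of the 3 scalings. In 4 of the 10 every OE value lay below every Ctrl value, where 8.97% of all genes did so, and 4 had an unadjusted p under 0.05, where 8.2% of all genes did. Psmb9, a subunit of the immunoproteasome, measured 35.98, 65.8 and 51.6 FPKM in the OE libraries against 75.2, 92.7 and 71.2 in the Ctrl libraries. Tap2, part of the peptide transporter, measured 33.1, 44.8 and 34.01 FPKM in the OE libraries against 52.7, 65.6 and 52.7 in the Ctrl libraries. OE 1 was lowest in both, and their differences of -0.66 (SE 0.24) and -0.60 (SE 0.18) shared limma adjusted p = 0.554. Tapbp, which loads peptides, and H2-D1, a class I heavy chain with close copies, were the other genes without overlap. Tapbp measured 74.3 ± 8.995 FPKM over the OE libraries and 97.9 ± 6.92 over the Ctrl libraries, and H2-D1 617 ± 82.4 FPKM over the OE libraries and 806 ± 106 over the Ctrl libraries (SD, n = 3). B2m, the light chain of class I molecules, measured 1055 ± 172 FPKM over the OE libraries and 1174 ± 169 over the Ctrl libraries. Ctrl 2 was the highest library for 9 of the 10 class I genes, where it was highest for 22.4% of all genes. OE 1 was the lowest library for 8 of the 10, where it was lowest for 21.1% of all genes. It was also lowest for the mean level of T and NK cell markers, in log2(FPKM + 1). That mean was 1.68, 1.89 and 2.09 in the OE libraries and 1.85, 2.44 and 2.25 in the Ctrl libraries. Of these markers only Cd3e, Cd3g and Cd8a were lowest in OE 1. Nkg7 was lowest in OE 3, Cd4 in Ctrl 3, Klrb1c in the library labelled Ctrl 1 and Ncr1 in OE 2. Neutrophil markers had a mean level of 11.51, 11.98 and 10.75 in the OE libraries and 12.001, 12.04 and 11.73 in the Ctrl libraries on the same scale, lowest in OE 3. Group means of osteoblast, muscle and cartilage markers were higher in OE than in Ctrl, but the library labelled Ctrl 1 stood with OE. It had 8.41 for osteoblast, 6.90 for muscle and 4.78 for cartilage markers, in log2(FPKM + 1). Its Psmb9 and Tap2 values, 75.2 and 52.7 FPKM, lay above every OE value. The part of all these cell types in the class I values was not tested.

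Immune GTPases and chemokines outside the members had a median difference of 0.029 over 9 genes, with overlap in all 9. Irgm2 and Irgm1 guard membranes against microbes. Irgm2 measured 29.1 ± 7.57 FPKM over the OE libraries and 34.02 ± 6.39 over the Ctrl libraries, and Irgm1 16.96 ± 4.88 FPKM over the OE libraries and 17.4 ± 2.45 over the Ctrl libraries (SD, n = 3). Gbp9 measured 6.42 ± 2.89 FPKM over the OE libraries and 4.92 ± 1.82 over the Ctrl libraries, and Cxcl9, a chemokine that interferon gamma induces, 1.71 ± 0.629 FPKM over the OE libraries and 1.20 ± 0.286 over the Ctrl libraries. Among 36 other interferon-induced genes tested 12 were positive, with a median of -0.079, and 18 were positive with scaling without marrow and muscle marker genes, with a median of 0.0071. Ifitm6, of a family that blocks virus entry, measured 1196, 1794 and 380.3 FPKM in the OE libraries against 1862, 2107 and 1661 in the Ctrl libraries. Ifitm1 measured 371, 695 and 58.1 FPKM in the OE libraries against 689, 544 and 461 in the Ctrl libraries, and Ifitm3 592, 993 and 386 FPKM in the OE libraries against 843, 794 and 625 in the Ctrl libraries. OE 3 was the lowest library for all 3, as it was for the neutrophil markers, whose part in these values was not tested.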

How the data were processed

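Groups and replicate numbers come from the sample titles. The authors deposited FPKM per gene, per the file headers. The submitters' processing notes name TopHat2, Cufflinks, DESeq and mm10; roles, versions and the strand setting were not found in the labels. Because FPKM is relative to a library's total, a few abundant genes lower all others. Symbols came from GENCODE M21 (GRCm38, which mm10 names).

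The design allowed for counts or FPKM, and its FPKM branch was used: limma 3.58.1 (R 4.3.3; lmFit and eBayes with trend) on log2(FPKM + 1), a scale that understates changes of low genes. A gene entered if 3 or more libraries reached 1 FPKM, which left 12177. Benjamini-Hochberg adjustment covered all of these (threshold 0.05). The fit was tested on simulated data. Members and lists were chosen with earlier results of these data known. All listed members are named, and from each pathway list the 2 highest means and the 2 largest tested differences, except 1 gene that is not reported here. Tapbp, Phf11d, the dendritic cell markers, the Col1a1 values and the trio of Isg15, Isg20 and Rsad2 were named after their values were seen. List levels are means of log2(FPKM + 1). Col1a1, listed at 0 in some libraries, was left out of the osteoblast level, and Bst2 and Irf7, as members, out of the dendritic cell sums. Promoters are from RefSeq. Alternatives were the pseudocount, filter, scaling, trend, replicate block and left-out libraries. The trimmed mean was computed unweighted. Tables and plots used Python 3.11.15, pandas 2.3.3, scipy 1.17.1 and matplotlib 3.10.9.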

Additional observations from a re-analysis of the deposited data

How the results depend on the processing

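Counts of called genes turned on the library labelled Ctrl 1. By limma 0 genes were called in each setting with all 6 libraries, 0 to 597 when libraries were left out singly (597 without the library labelled Ctrl 1), and 1388 when the library labelled Ctrl 1 and OE 3 were both left out. Members called numbered 0 throughout, except 2 in the last setting. No member changed sign with a pseudocount of 0.1, no filter, a filter of 5 FPKM, trimmed mean scaling or no trend. With scaling without marrow and muscle marker genes, which moved the median of all genes from -0.042 to 0.043, 5 changed sign: Ifih1 to 0.0572, Trim25 to 0.0845, Ifit2 to 0.0207, Isg20 to 0.0093 and Ifi35 to 0.0578. Xaf1, 1 of the 30 members tested, then had every OE value above every Ctrl value, where 677 of the 12177 genes did.

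With the library labelled Ctrl 1 and OE 3 both left out, Oas1a was at 0.0093, Ifit1 at -0.0032, Isg15 at -0.6371, Herc6 at -0.2975, Mx1 at -0.1114, Gbp7 at -0.2741, Rsad2 at -0.959, Bst2 at -0.0676 and Isg20 at -1.3779. Over all settings that left libraries out, differences that changed sign ran from -0.2315 to 0.1274 for Irf7, -0.2623 to 0.1134 for Ifih1, -0.0889 to 0.1313 for Trim25, -0.5204 to 0.0093 for Oas1a, -0.0433 to 0.6253 for Oas2, -0.0293 to 0.3703 for Ifit1, -0.2226 to 0.0259 for Ifit2, -0.6371 to 0.7468 for Isg15, -0.2975 to 0.1562 for Herc6, -0.1114 to 0.1746 for Mx1, -0.2741 to 0.4414 for Gbp7, -0.959 to 0.6678 for Rsad2, -0.1533 to 0.3372 for Bst2, -1.3779 to 0.4877 for Isg20, -0.1329 to 0.14 for Ifi35 and -0.2916 to 0.3039 for Rtp4. The cause was not tested. Of the members that kept their sign, Usp18 ran from 0.075 to 0.56, Zbp1 from -0.52 to -0.16 and Oasl1 from -0.42 to -0.17 with single libraries left out. The Wnt7b difference was 2.05 with a pseudocount of 0.1, 0.97 with scaling without marrow and muscle marker genes and 1.26 with the library labelled Ctrl 1 and OE 3 both left out, and ran from 0.24 to 0.96 with single libraries left out; filter, trend and block do not enter its permutation test.

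Deviations of libraries with the same number correlated across genes at 0.44, 0.087 and 0.31, and OE 2 and OE 3 correlated better with another number, so numbers were not taken as pairs. With a replicate block limma called 0 genes and 0 members, and the median member difference was -0.018. That median ran from -0.11 to 0.11 with single libraries left out, was -0.16 without the library labelled Ctrl 1 and OE 3, 0.0015 with no filter and 0.071 with scaling without marrow and muscle marker genes. Absolute depth is unknown. Among the 30 members tested, 3 libraries per group leave changes of more than 1 in log2(FPKM + 1) undecided for Isg15, Isg20 and Rsad2. The 95% interval of Ifi44, which was below the filter, also passed 1, at 0.20 to 1.20 with no filter.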
